A study of Mus musculus with 6 samples.

Results

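The genes described here, read out by RNA sequencing of mouse leukaemia cells, are those that make cholesterol and fatty acids together with the factors that regulate them. The set holds 32 genes, chosen by function with the difference between the LSK-derived and GMP-derived counts already known. Their differences in that comparison are therefore given as a description and without p-values. Rows were found for 31 of the 32 among the 33924 rows of the table, all 31 passed the filter on low counts that 13406 genes passed, and Hmgcs1 is not analysed here. The older symbol Sc4mol stands for the gene now called Msmo1.

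The comparison was between 2 groups of 3 libraries. The LSK-derived leukaemias (libraries 44, 45 and 46) began as lineage-negative bone marrow cells positive for Sca-1 and Kit, which include the blood stem cells. The GMP-derived leukaemias (libraries 5, 11 and 19) began as granulocyte-macrophage progenitors. In both groups a retrovirus had delivered the MLL-AF9 oncogene, the transformed cells had been passed through lethally irradiated syngeneic C57BL/6 mice together with wild-type support marrow, and cells taken from the marrow of moribund animals were cultured in IMDM with serum, SCF, IL-3 and IL-6. The groups thus share the oncogene, the host strain and the culture medium, and differ in the labelled cell of origin. No batch is given in the labels, so a difference between the groups in culture or preparation could not be told apart from the cell of origin. Neither the age of the mice nor the independence of the libraries of a group (by transduction or by animal) is stated in the labels, so the spread between libraries may be technical in part. The title of the series asks how the cell of origin bears on apoptotic priming and on sensitivity to LSD1 inhibition. The libraries carry no label for an inhibitor or any other drug.

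Cholesterol is built from acetyl-CoA through mevalonate, farnesyl diphosphate, squalene and lanosterol. The transcription factor SREBP2, made from Srebf2, switches these genes on when membrane sterol is low: SCAP carries the precursor from the endoplasmic reticulum to the Golgi, where proteases release the active factor, and INSIG proteins hold SCAP back when sterol is plentiful. SREBP1, made from Srebf1, favours genes of fatty acid synthesis, and the liver X receptors, made from Nr1h2 and Nr1h3, are activated by oxysterols and switch on cholesterol export and Srebf1.

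Every measured enzyme of sterol synthesis in the set was lower in the LSK-derived leukaemias. All 17 were called in edgeR's fit over all genes (threshold 0.05 on the adjusted p), where 13.9% of tested genes were lower, and 15 of the 17 were at least 2-fold lower, as were 6.09% of tested genes. Their median log2 fold change, LSK-derived minus GMP-derived, was -1.38. Their summed expression was 1041 ± 69.2 CPM in the LSK-derived libraries and 2483 ± 191 CPM in the GMP-derived ones (SD, n = 3 each), 2.39-fold lower. The fatty acid genes differed less, with 3 of 6 lower and a median log2 fold change of -0.41. Of the 7 regulators 1 was lower, 1 was higher and 5 were not called, with a median of -0.10. Because the libraries are bulk RNA, fewer cells that express a gene and less of its RNA per cell cannot be told apart.

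Of the 31 genes, 22 were lower in the LSK-derived libraries, 1 was higher and 8 were not called. Among all 13406 tested genes 13.9% were lower, 11.8% were higher and 25.7% were called in either direction. Of the 31, 17 were called and at least 2-fold lower. The 3 LSK-derived values lay below the 3 GMP-derived values in 22 of 31 genes and above them in 1, against 22.8% and 22.5% of tested genes. Nothing is read from these shares, since the genes were chosen with the comparison known. The median log2 fold change (LSK-derived minus GMP-derived) was -1.18 over the 31 genes and 0.012 over all tested genes. Over all genes 1867 were lower and 1577 higher; without LSK 44 these counts were 973 and 857, and without LSK 46 they were 980 and 770. The members counted as lower were 20 and 22 in those fits.

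**Figure D1:**
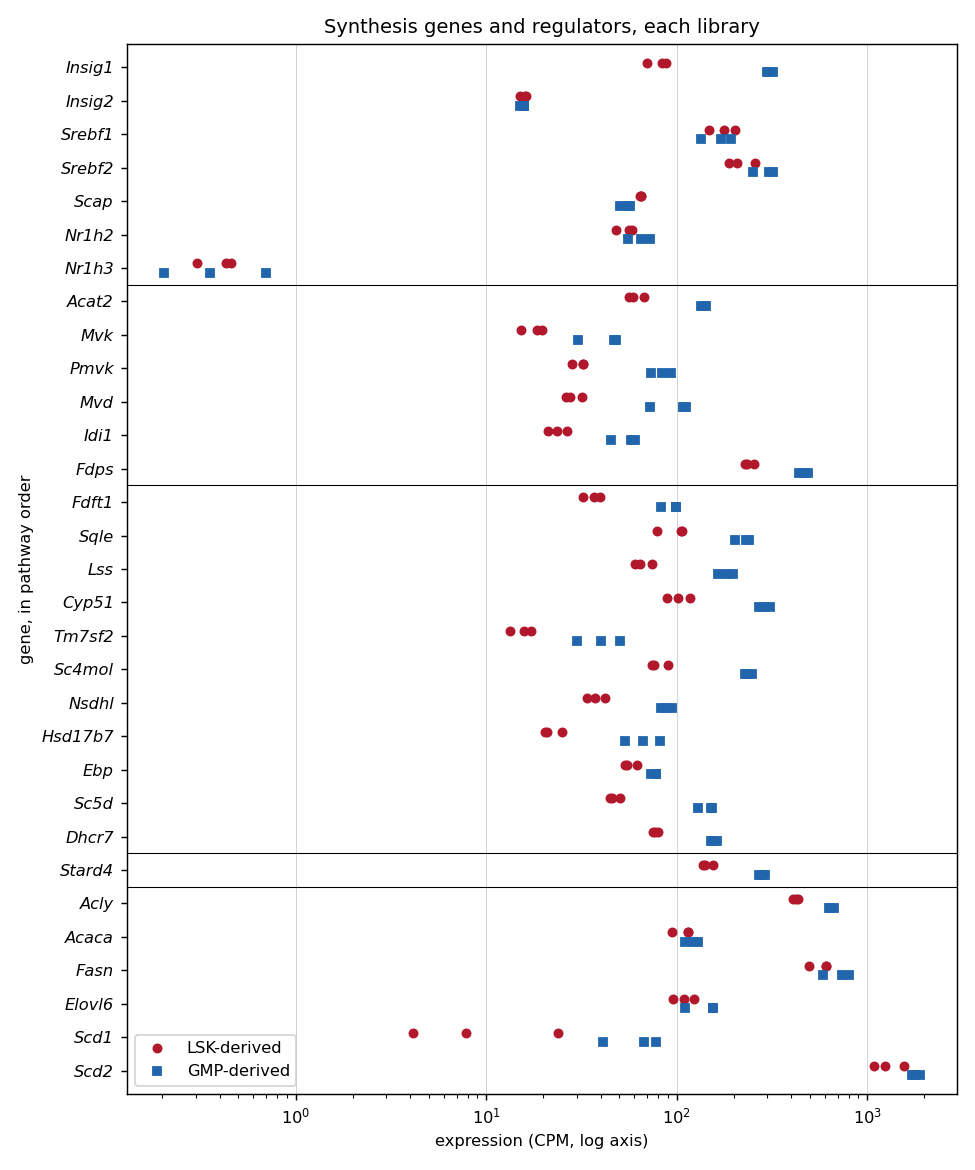
Expression of the 31 genes in each library, as CPM on a log axis, in pathway order from regulators at the top through mevalonate and sterol enzymes to fatty acid genes. Circles are the 3 LSK-derived and squares the 3 GMP-derived libraries. In all 17 sterol synthesis enzymes the circles lie left of the squares, as they would in 22.8% of all tested genes. Circles and squares of Insig2, Srebf1 and Nr1h3 overlap.

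Values are CPM, read counts scaled to a common TMM-adjusted library size, in the order LSK 44, 45 and 46, against GMP 5, 11 and 19. A level followed by ± is a mean with its SD over the 3 libraries of a group, and the error after ± for a log2 fold change is an approximate standard error (SE), derived from the test statistic. Total counts ran from 16640929 to 25628145 in the LSK-derived and from 24411366 to 33885428 in the GMP-derived libraries. Depth is thus lower on average in the LSK-derived group, and its part in the differences was not tested.

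Of the 7 regulators, 1 was lower, 1 was higher and 5 were not called, where 13.9% of tested genes were lower and 11.8% higher. Insig1, which encodes an anchor that holds SCAP in the endoplasmic reticulum and is itself switched on by SREBP2, was at 69.6, 84.1 and 88.1 CPM in the LSK-derived libraries, against 305, 298 and 319 CPM in the GMP-derived ones. The groups were far apart, with each LSK-derived library below every GMP-derived one and a 3.81-fold lower level overall (log2 fold change -1.93 ± 0.10). Its paralog Insig2, whose protein has the same role, was at 16.0, 15.1 and 16.2 CPM in the LSK-derived libraries, against 15.8, 15.9 and 15.0 CPM in the GMP-derived ones, a log2 fold change of 0.016 ± 0.095. The ratio of Insig1 to Insig2 within a library was 5.12 ± 0.661 in the LSK-derived libraries, against 19.8 ± 1.30 in the GMP-derived ones (SD, n = 3 each, CPM not divided by length).

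Srebf2 was at 207, 189 and 258 CPM in the LSK-derived libraries, against 251, 307 and 322 CPM in the GMP-derived ones. LSK 46 lay within the GMP-derived range, and the gene was not called (log2 fold change -0.43 ± 0.14), although it was called lower with DESeq2 and in the fits without LSK 46 or without GMP 5. Srebf1 was at 148, 177 and 202 CPM in the LSK-derived libraries, against 134, 170.2 and 193 CPM in the GMP-derived ones, with overlapping groups (log2 fold change 0.084 ± 0.16). The CPM ratio of Srebf2 to Srebf1, not divided by length, was 1.25 ± 0.168 in the LSK-derived libraries, against 1.78 ± 0.105 in the GMP-derived ones. Which of these 2 genes was more abundant depended on the transcript length used: per kb of the median length Srebf1 was above Srebf2 in both groups, at 234 against 110.2 CPM per kb in the LSK-derived and at 221 against 148 CPM per kb in the GMP-derived libraries. Scap was the member that was called higher, at 64.5, 64.9 and 65.2 CPM in the LSK-derived libraries, against 50.5, 55.8 and 56.9 CPM in the GMP-derived ones, a log2 fold change of 0.25 ± 0.072. The groups did not overlap, but the difference was small, and the call did not survive the removal of any 1 library, or of the filter on low counts.

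Of the liver X receptor genes, Nr1h2 was at 48.3, 58.6 and 56.1 CPM in the LSK-derived libraries, against 55.5, 65.0 and 72.3 CPM in the GMP-derived ones, with overlapping groups and no call (log2 fold change -0.24 ± 0.12). Nr1h3 was close to absent, at 0.302, 0.432 and 0.458 CPM in the LSK-derived libraries, against 0.205, 0.356 and 0.704 CPM in the GMP-derived ones. It had 5, 11 and 11 counts in the LSK-derived and 5, 12 and 24 in the GMP-derived libraries. The upper limit taken here for a count of 0 was 3 counts. Across the 6 libraries this limit amounts to between 0.0885 and 0.180 CPM (without the TMM factor). No difference in Nr1h3 was called, and its error was large at this depth (log2 fold change -0.10 ± 0.49).

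All 6 measured genes of the mevalonate segment were lower in the LSK-derived libraries (13.9% over all tested genes). None had overlapping groups (22.8% of tested genes were lower without overlap). Acat2, which encodes a cytosolic enzyme that joins acetyl-CoA units, was at 59.0, 56.5 and 67.1 CPM in the LSK-derived libraries, against 134, 137 and 142 CPM in the GMP-derived ones (log2 fold change -1.18 ± 0.082). Mevalonate is phosphorylated in consecutive steps by the products of Mvk and Pmvk. Mvk was at 19.7, 15.2 and 18.5 CPM in the LSK-derived libraries, against 30.4, 47.9 and 47.2 CPM in the GMP-derived ones (log2 fold change -1.24 ± 0.20). Pmvk was at 28.4, 32.4 and 32.3 CPM in the LSK-derived libraries, against 73.9, 84.1 and 93.4 CPM in the GMP-derived ones (log2 fold change -1.43 ± 0.11). In Mvk, GMP 5 lay well below GMP 11 and GMP 19.

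Mvd, which encodes the decarboxylase that makes isopentenyl diphosphate, had the lowest log2 fold change of the sterol synthesis enzymes, -1.78 ± 0.18. It was at 27.5, 26.3 and 31.9 CPM in the LSK-derived libraries, against 72.7, 108 and 113 CPM in the GMP-derived ones. Idi1, the isomerase gene, was at 23.5, 21.2 and 26.5 CPM in the LSK-derived libraries, against 45.2, 57.5 and 60.5 CPM in the GMP-derived ones (log2 fold change -1.20 ± 0.14). Fdps, which encodes farnesyl diphosphate synthase, had the highest CPM of the sterol enzymes in the set. It was at 254, 228 and 235 CPM in the LSK-derived libraries, against 441, 464 and 491 CPM in the GMP-derived ones (log2 fold change -0.96 ± 0.074). Fdps was, with Ebp, 1 of 2 enzyme genes with a difference below 2-fold.

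The 11 enzymes of the set from squalene to cholesterol were all lower (13.9% over all tested genes). None had overlapping groups (22.8% of tested genes were lower without overlap). Fdft1 and Sqle act first: Fdft1 encodes squalene synthase, and Sqle encodes squalene epoxidase, a rate-limiting enzyme. Fdft1 was at 36.8, 32.3 and 39.4 CPM in the LSK-derived libraries, against 83.2, 99.1 and 99.8 CPM in the GMP-derived ones (log2 fold change -1.38 ± 0.11). Sqle was at 106, 79.3 and 106 CPM in the LSK-derived libraries, against 202, 232 and 240.1 CPM in the GMP-derived ones (log2 fold change -1.21 ± 0.13). Lss, which encodes lanosterol synthase and closes the sterol rings, was at 64.5, 60.2 and 74.3 CPM in the LSK-derived libraries, against 166, 184 and 197 CPM in the GMP-derived ones (log2 fold change -1.46 ± 0.10). In each of these genes the highest LSK-derived library was below the lowest GMP-derived one.

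Removal of the methyl groups of lanosterol involves Cyp51, Tm7sf2, Sc4mol, Nsdhl and Hsd17b7. Cyp51, the lanosterol demethylase gene, was at 102, 88.7 and 117 CPM in the LSK-derived libraries, against 272, 289 and 308 CPM in the GMP-derived ones (log2 fold change -1.50 ± 0.11). Sc4mol, a methylsterol oxidase gene, was at 76.5, 73.9 and 89.9 CPM in the LSK-derived libraries, against 228, 234 and 248 CPM in the GMP-derived ones (log2 fold change -1.56 ± 0.092). In both genes the difference between the groups was larger than the spread within either. Nsdhl was at 33.7, 37.5 and 42.3 CPM in the LSK-derived libraries, against 87.6, 83.1 and 95.0 CPM in the GMP-derived ones (log2 fold change -1.23 ± 0.10). Hsd17b7 was at 25.2, 20.4 and 20.9 CPM in the LSK-derived libraries, against 53.6, 81.5 and 66.6 CPM in the GMP-derived ones (log2 fold change -1.60 ± 0.17). Both encode dehydrogenase or reductase steps of the removal of methyl groups. Tm7sf2, a sterol reductase gene, was the least abundant of the sterol enzymes in LSK-derived libraries by CPM, at 13.4, 17.2 and 15.7 CPM in the LSK-derived libraries, against 29.9, 40.3 and 50.4 CPM in the GMP-derived ones (log2 fold change -1.38 ± 0.20), and its GMP-derived libraries differed among themselves by more than its LSK-derived ones.

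The last steps are encoded by Ebp, an isomerase gene, Sc5d, a desaturase gene, and Dhcr7, the reductase gene of the final step. Sc5d was at 44.6, 45.7 and 50.7 CPM in the LSK-derived libraries, against 129, 152 and 153 CPM in the GMP-derived ones, and Dhcr7 at 75.4, 77.4 and 80.3 CPM in the LSK-derived libraries, against 151, 156 and 164 CPM in the GMP-derived ones. Their log2 fold changes were -1.62 ± 0.095 and -1.01 ± 0.064, and Sc5d had the larger difference. Ebp stood apart from the other enzymes with the smallest difference, at 62.3, 53.9 and 54.7 CPM in the LSK-derived libraries, against 73.8, 77.7 and 77.8 CPM in the GMP-derived ones (log2 fold change -0.42 ± 0.079, 1.34-fold lower). Its groups did not overlap, and its call was lost without LSK 46. Stard4, which encodes a soluble carrier of cholesterol between membranes and is a known SREBP2 target, was at 141, 138 and 155 CPM in the LSK-derived libraries, against 292, 271 and 282 CPM in the GMP-derived ones, 1.95-fold lower.

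Promoter windows from RefSeq on GRCm38.p6, running from 250 bases before to 50 bases after each start, were found for 25 of the 31 genes. Fdps, Fdft1, Sqle, Stard4, Scd1 and Scd2 had no window. The counts were made on mm9, another build, so these coordinates do not apply to them. CCAAT, the box bound by the factor NF-Y that is known to act with SREBP at sterol gene promoters, was present on either strand in 19 of the 25 genes and in 13 of 14 sterol enzymes with a window, against 41.1% of all 27025 genes. GGGCGG, the GC box bound by SP1, was also present in 19 of the 25 and in 13 of the 14 enzymes, against 38.2% of all genes. CACGTG, an E-box, was present in 5 of the 25, against 8.09%. TCACNCCAC, a core of the sterol regulatory element, had no exact match in the 25, against 1.44% of all genes. At so low a share 25 genes are too few for its absence to be read. With 1 mismatch allowed this core was found in 11, against 26.7%. Matches of different motifs could overlap. The 27025 genes were not limited to those tested here, and the shares among tested genes were not computed. The 25 genes had 34 windows and the 27025 had 32851, and more windows per gene give more room for a match. These are matches of letters, not sites.

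The bases upstream of the start are shown for Insig1, the regulator with the largest difference, for its paralog Insig2, which was not called, and for Mvd and Sc5d, the sterol synthesis enzymes with the lowest log2 fold changes. They were picked after their values were seen. Where RefSeq gives several starts, the one farthest upstream was used. Each runs 5′ to 3′ along the gene's strand from 250 bases before the RefSeq start to the base before the start, or for Insig1 to the base before a start that GENCODE places farther upstream. Capitals mark CCAAT and GGGCGG on either strand, where ATTGG and CCGCCC are their reverse complements. Insig1 lies on the plus strand at chr5:28071162-28071362, Insig2 on the minus strand at chr1:121332590-121332839, Mvd on the minus strand at chr8:122443423-122443672 and Sc5d on the minus strand at chr9:42264301-42264550 (GRCm38.p6).
Insig1: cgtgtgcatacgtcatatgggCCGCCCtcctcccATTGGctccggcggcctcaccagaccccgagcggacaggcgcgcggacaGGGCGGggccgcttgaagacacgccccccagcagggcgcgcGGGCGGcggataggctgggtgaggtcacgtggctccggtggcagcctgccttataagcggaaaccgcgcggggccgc
Insig2: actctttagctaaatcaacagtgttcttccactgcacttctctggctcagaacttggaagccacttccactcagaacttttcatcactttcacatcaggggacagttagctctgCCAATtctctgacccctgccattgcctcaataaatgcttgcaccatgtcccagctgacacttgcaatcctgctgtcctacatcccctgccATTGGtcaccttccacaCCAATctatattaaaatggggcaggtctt
Mvd: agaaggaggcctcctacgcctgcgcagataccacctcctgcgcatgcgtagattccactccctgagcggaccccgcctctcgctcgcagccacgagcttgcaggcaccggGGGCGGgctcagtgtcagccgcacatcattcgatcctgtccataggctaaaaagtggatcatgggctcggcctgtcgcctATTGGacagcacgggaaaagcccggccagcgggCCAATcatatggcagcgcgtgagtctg
Sc5d: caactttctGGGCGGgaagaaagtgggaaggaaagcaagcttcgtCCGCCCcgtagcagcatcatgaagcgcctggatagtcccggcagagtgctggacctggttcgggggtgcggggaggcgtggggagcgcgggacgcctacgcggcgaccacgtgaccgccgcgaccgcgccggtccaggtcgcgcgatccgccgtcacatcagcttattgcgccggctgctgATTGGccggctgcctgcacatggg
The stretches hold 1, 3, 2 and 1 CCAAT boxes and 3, 0, 1 and 2 GC boxes in that order. Insig2, which was not called, has the most CCAAT boxes of the 4, but only at the start farthest upstream. Insig2 has other RefSeq starts downstream, and 2 of their windows hold a GC box and no CCAAT. These put Insig2 among the 19 genes with a GC box. Which start these cells use was not tested, and nothing is read from the counts of boxes.

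Exons of 4 members overlap those of another tested gene in GENCODE, and whether the counting used strand is not stated. Reads of the shared stretches could thus have been assigned to either gene or counted for neither. Fdft1 overlaps Ctsb, which was at 239 ± 45.1 CPM in the LSK-derived libraries, against 309.97 ± 51.3 CPM in the GMP-derived ones. Ctsb was not called (adjusted p = 0.145). Cyp51 overlaps Akap9, which was lower in the LSK-derived libraries by less than Cyp51 (log2 fold change -0.63 ± 0.10, edgeR's adjusted p = 0.00659). Srebf1 overlaps Rai1, which was higher (log2 fold change 0.63 ± 0.12, adjusted p = 0.0110), and Tm7sf2 overlaps a gene on its own strand that the table lists as 1110014N23Rik (log2 fold change -0.15 ± 0.10, adjusted p = 0.329).

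**Figure D2:**
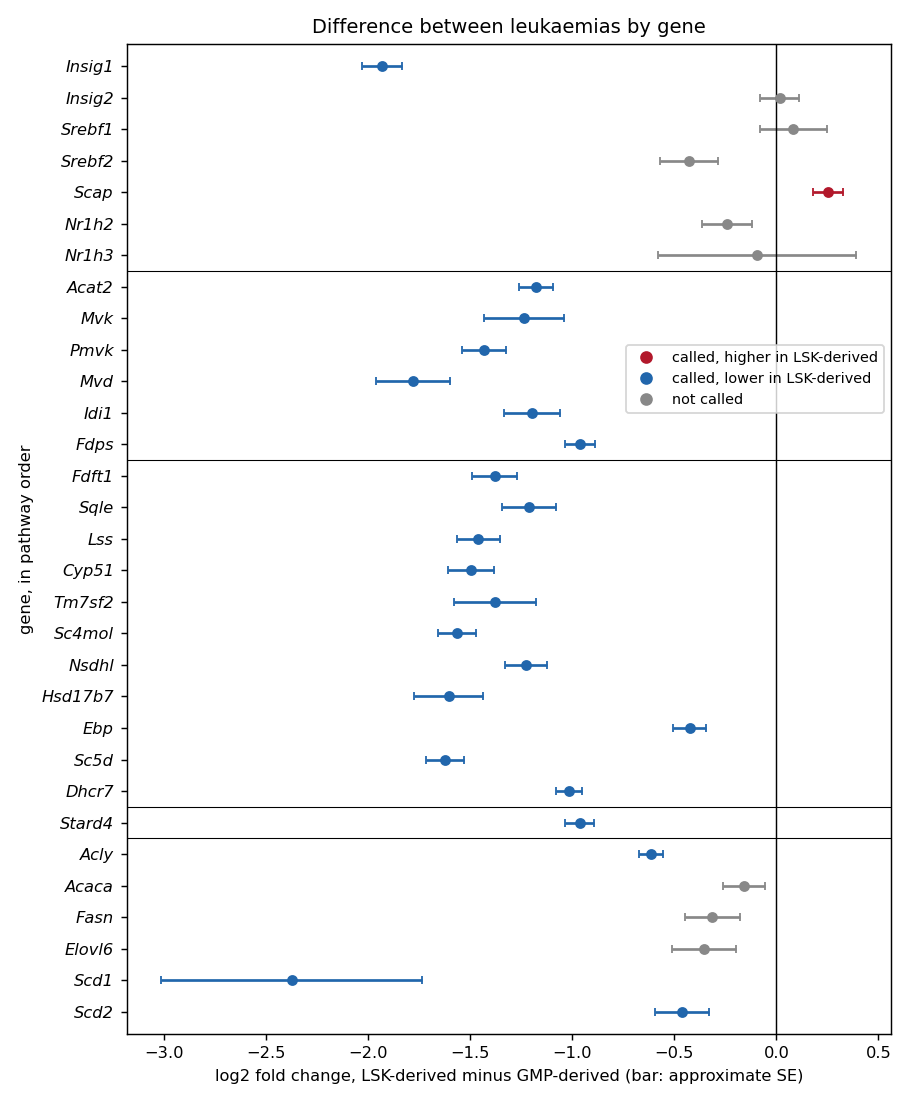
Log2 fold change of each gene, LSK-derived minus GMP-derived, with its approximate SE as a bar. The 17 sterol synthesis enzymes between Acat2 and Dhcr7 lie between -1.78 and -0.42, Insig1 lies at -1.93, and 5 of the 7 regulators were not called.

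The fatty acid genes showed smaller differences, apart from Scd1. Acly, which encodes the ATP citrate lyase that supplies acetyl-CoA to both pathways, was at 411, 435 and 424 CPM in the LSK-derived libraries, against 639, 667 and 635 CPM in the GMP-derived ones, 1.53-fold lower with no overlap (log2 fold change -0.61 ± 0.059). Acaca, the acetyl-CoA carboxylase gene, was at 114, 94.3 and 116 CPM in the LSK-derived libraries, against 129.8, 122 and 111 CPM in the GMP-derived ones, and its groups overlapped (log2 fold change -0.16 ± 0.10). Fasn, the fatty acid synthase gene, was at 611, 497 and 609.7 CPM in the LSK-derived libraries, against 589.95, 801 and 741 CPM in the GMP-derived ones (log2 fold change -0.31 ± 0.13). GMP 5 lay within the LSK-derived range of Fasn, and the gene was called lower in the fit without GMP 5. Elovl6, an elongase gene, ranged from 95.4 to 124 CPM in the LSK-derived and from 111 to 155 CPM in the GMP-derived libraries, was not called (log2 fold change -0.36 ± 0.16) and was called lower without GMP 19.

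The stearoyl-CoA desaturase genes Scd1 and Scd2, which introduce a double bond into saturated fatty acids, differed in level and in spread. Scd2 was the member with the highest CPM, at 1089.9, 1237 and 1568 CPM in the LSK-derived libraries, against 1888, 1729.8 and 1753 CPM in the GMP-derived ones, 1.38-fold lower (log2 fold change -0.46 ± 0.13). Scd1 was at 7.86, 4.16 and 23.8 CPM in the LSK-derived libraries, against 67.2, 41.2 and 77.8 CPM in the GMP-derived ones. The LSK-derived libraries of Scd1 differed 5.72-fold among themselves, the widest within-group spread of the 31 genes, with LSK 46 the highest. Its log2 fold change was -2.37 ± 0.64, or -3.39 without LSK 46. The calls of Scd1 and Scd2 were each lost in 5 of the 6 fits without a library (all but the fit without LSK 46), that of Scd1 also with no filter and that of Scd2 also with upper-quartile scaling. The 2 genes are paralogs, and reads of shared sequence may have been lost or assigned to the wrong gene. In a library Scd2 exceeded Scd1 by a CPM ratio of 167 ± 118 in the LSK-derived libraries, against 30.9 ± 10.0 in the GMP-derived ones.

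**Figure D3:**
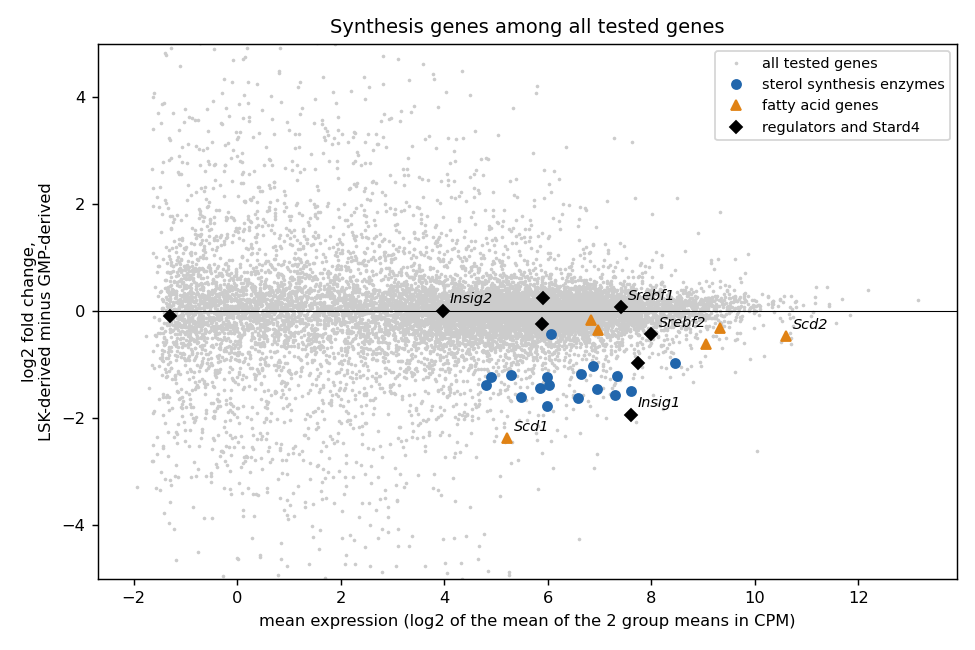
Log2 fold change (LSK-derived minus GMP-derived) against mean expression for all 13406 tested genes in grey, with sterol synthesis enzymes as circles, fatty acid genes as triangles, and regulators with Stard4 as diamonds. The enzymes lie below 0 at intermediate to high expression, and 149 genes beyond 5 log2 units are outside the plotted range.

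The order of the libraries within a group was not used to choose the genes. The sterol enzymes tended to be lowest, or highest, in the same library. GMP 5 was the lowest GMP-derived library in 16 of the 17 enzymes, and in 37.3% of all tested genes. GMP 19 was the highest in 15 of the 17, and in 35.8% of tested genes. The 17 enzymes summed to 2273, 2528 and 2647 CPM in GMP 5, GMP 11 and GMP 19. Among LSK-derived libraries, LSK 45 was the lowest in 12 of the 17 and LSK 46 in none, against 36.3% and 30.2% of tested genes. Their sums were 1053, 966 and 1103 CPM in LSK 44, LSK 45 and LSK 46. The highest library of an enzyme exceeded the lowest by a median of 1.22-fold in the LSK-derived and 1.19-fold in the GMP-derived group, and by at most 1.34-fold and 1.68-fold. These enzymes share libraries, so the counts are a description with no test.

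Per kilobase of the longest annotated transcript, Scd2 was the most abundant of the 31 genes in both groups, at 238 ± 44.9 CPM per kb in LSK-derived libraries, against 328 ± 15.7 CPM per kb in GMP-derived ones. Acly and Fdps followed. Acly was at 95.6 ± 2.71 and Fdps at 81.0 ± 4.55 CPM per kb in the LSK-derived libraries, and they were at 146 ± 3.97 and 158 ± 8.57 CPM per kb in the GMP-derived ones, so that their order differed between groups. Insig1 held place 8 in the LSK-derived libraries (29.9 ± 3.60 CPM per kb) and place 4 in the GMP-derived ones (114 ± 3.98 CPM per kb). Srebf2 held place 5 and place 10, at 43.0 ± 7.04 and 57.8 ± 7.33 CPM per kb. In the LSK-derived libraries Srebf2 and Srebf1 (40.9 ± 6.24 CPM per kb) were neighbours that did not differ beyond their spread on this scale. Nr1h3 was the lowest in both groups. The median over the 31 genes was 21.8 CPM per kb in LSK-derived libraries, against 40.8 CPM per kb in GMP-derived ones, and 46.7 against 86.3 with the median transcript length. That length, which annotated fragments shorten, also changed the order: Fasn then led in both groups, at 659 CPM per kb in LSK-derived libraries, against 818 CPM per kb in GMP-derived ones, and Scd2 was at 341 CPM per kb, against 469.8. Fdps, at 521 CPM per kb, was above Scd2 in the GMP-derived libraries on that scale.

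Other genes of these pathways were taken from 7 lists by function (107 genes, 95 tested), and their p-values are edgeR's, adjusted over all tested genes, of which 13.9% were lower and 11.8% higher. The lists were drawn up with earlier results of the series known. Among 14 further sterol and isoprenoid genes, 4 were lower, 1 was higher and 9 were not called, with a median log2 fold change of -0.077. Fnta, a protein prenyltransferase subunit gene, was lower at 85.6, 89.8 and 85.1 CPM in the LSK-derived libraries, against 144, 117 and 124 CPM in the GMP-derived ones (log2 fold change -0.56 ± 0.090, adjusted p = 0.00610). Ggps1, which makes the isoprenoid geranylgeranyl diphosphate, was not called, at 31.5 ± 0.781 CPM in the LSK-derived libraries, against 31.5 ± 3.39 CPM in the GMP-derived ones. Pdss2, a gene of coenzyme Q synthesis, was higher (adjusted p = 0.0451), a call lost in each fit without a library and with no filter. Lbr, like Tm7sf2 a sterol reductase gene, was not called (log2 fold change -0.27 ± 0.084, adjusted p = 0.0562). It was at 418 ± 41.1 CPM in the LSK-derived libraries, against 503 ± 7.63 CPM in the GMP-derived ones, without overlap. Lbr, Ggps1 and Pdss2, like Mbtps1, Mbtps2 and Cpt1a below, were picked after their values were seen.

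Of 15 genes of cholesterol uptake, transport and storage, 7 were lower (13.9% over all tested genes) and 8 were not called, with a median log2 fold change of -0.54. Scarb1, a receptor gene for high-density lipoprotein, was at 109, 109 and 111 CPM in the LSK-derived libraries, against 178, 178 and 217 CPM in the GMP-derived ones (log2 fold change -0.80 ± 0.093, adjusted p = 0.00203). The groups did not overlap in Scarb1. Among genes that handle cholesteryl esters, Nceh1, an ester hydrolase gene, had a log2 fold change of -0.97 ± 0.090, and Lipa, the lysosomal lipase gene, of -0.49 ± 0.074 (adjusted p = 0.00108 and 0.00494). Soat1, an ester synthesis gene picked after its values were seen, was also lower (log2 fold change -1.57 ± 0.25, adjusted p = 0.00708), and its paralog Soat2 was not called (log2 fold change -0.020 ± 0.25, adjusted p = 0.964).

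Of 12 genes for SREBP processing and sterol-dependent turnover, 2 were lower (13.9% over all tested genes) and 10 were not called, with a median log2 fold change of -0.15. Ufd1l was lower (log2 fold change -0.24 ± 0.072, adjusted p = 0.0486), and its call was lost in each fit without a library, with upper-quartile scaling and with no filter. The list had no lower gene without LSK 44 or LSK 46 and 1 without GMP 19. The protease genes Mbtps1 and Mbtps2, which release active SREBP, were not called. Mbtps1 was at 175 ± 22.3 CPM in the LSK-derived libraries, against 165 ± 6.38 CPM in the GMP-derived ones. Mbtps2 was at 47.0 ± 0.320 CPM in the LSK-derived libraries, against 53.3 ± 12.9 CPM in the GMP-derived ones.

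Partners and targets of the liver X receptors moved in both directions, with 4 of 11 tested genes lower (13.9% over all), 2 higher (11.8% over all) and 5 not called, and a median log2 fold change of 0.024. Rxra, the gene of a partner receptor, was at 1.45, 0.903 and 1.25 CPM in the LSK-derived libraries, against 4.67, 6.59 and 8.06 CPM in the GMP-derived ones (log2 fold change -2.43 ± 0.29, adjusted p = 0.00227). Abca1, a cholesterol exporter gene that the receptors activate, was higher at a very low level, 0.786, 1.61 and 1.46 CPM in the LSK-derived libraries, against 0.0820, 0.119 and 0.352 CPM in the GMP-derived ones (log2 fold change 2.74 ± 0.54, adjusted p = 0.0127; 3.60 without GMP 19). Abcg1, another exporter gene, was at 8.83, 15.1 and 16.8 CPM in the LSK-derived libraries, against 10.9, 4.60 and 7.07 CPM in the GMP-derived ones. It was not called (adjusted p = 0.132), but was called higher without GMP 5 (log2 fold change 1.22). The LSK-derived libraries overlapped the GMP-derived ones in Abcg1 but not in Abca1. Ncor1, a corepressor gene, and Abcg4 were lower (log2 fold changes -0.36 ± 0.058 and -1.99 ± 0.44), and Abcg4 lost its call without LSK 46 or GMP 11. Abcg4 was at a very low level, 0.423, 0.157 and 0.333 CPM in the LSK-derived libraries, against 0.861, 1.63 and 1.03 CPM in the GMP-derived ones. Without GMP 11, 2 genes were lower and 1 was higher, and without LSK 45 or LSK 46 1 was higher.

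Among 19 tested genes of fatty acid synthesis, elongation and desaturation outside the set, 7 were lower (13.9% over all), 4 were higher (11.8% over all) and 8 were not called, with a median log2 fold change of -0.25. Slc25a1, the citrate carrier gene upstream of Acly, was at 102, 112 and 118 CPM in the LSK-derived libraries, against 169, 163 and 172 CPM in the GMP-derived ones (log2 fold change -0.61 ± 0.074, adjusted p = 0.00236). Me1, the malic enzyme gene that supplies NADPH, was at 1.03, 0.471 and 1.46 CPM in the LSK-derived libraries, against 15.4, 2.08 and 8.03 CPM in the GMP-derived ones (log2 fold change -3.10 ± 0.80, adjusted p = 0.0339). GMP 5 was the highest library for Me1, whose log2 fold change was -2.37 without it, and its call was lost in 5 of 6 fits without a library (all but that without GMP 11), with limma voom and with no filter. Acss2, the acetyl-CoA synthetase gene, was not called at 6.29, 6.99 and 11.9 CPM in the LSK-derived libraries, against 13.2, 12.8 and 14.7 CPM in the GMP-derived ones (adjusted p = 0.0831), and was called with DESeq2 and without LSK 46. Mlx, a transcription factor gene, was lower (log2 fold change -0.55 ± 0.090). Fads3, a desaturase gene, was at 7.58 ± 0.602 CPM in the LSK-derived libraries, against 1.51 ± 0.548 CPM in the GMP-derived ones. It was higher (log2 fold change 2.31 ± 0.30, adjusted p = 0.00285), as was Hsd17b12, a gene of the elongation cycle (log2 fold change 0.41 ± 0.074, adjusted p = 0.00948). The count of lower genes was 3 without LSK 44 or GMP 19 and 4 without LSK 45, LSK 46 or GMP 11, and that of higher genes was 2 without LSK 44.

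Of 11 tested genes of fatty acid activation and glycerolipid synthesis, 3 were lower (13.9% over all tested genes) and 8 were not called, with a median log2 fold change of 0.0093. Dgat2, which encodes an enzyme of triglyceride synthesis, was at 5.32, 5.42 and 4.54 CPM in the LSK-derived libraries, against 19.9, 34.6 and 41.2 CPM in the GMP-derived ones (log2 fold change -2.65 ± 0.28, adjusted p = 0.00173). Dgat1, which encodes an unrelated enzyme of the same step, was lower too (log2 fold change -1.03 ± 0.15, adjusted p = 0.00414). Acsl4, an acyl-CoA synthetase gene, was the other (log2 fold change -0.61 ± 0.069). Of 13 tested genes of fatty acid oxidation, 4 were lower (13.9% over all tested genes) and 9 were not called, with a median log2 fold change of -0.072. Slc25a20, the carnitine carrier gene, had a log2 fold change of -0.80 ± 0.10, Acaa2 of -0.55 ± 0.089, Echs1 of -0.43 ± 0.078 and Acadl of -0.28 ± 0.073, the last with a call lost without LSK 44, LSK 45, LSK 46 or GMP 11. Cpt1a, the gatekeeper gene of mitochondrial oxidation, was not called (log2 fold change -0.37 ± 0.12, adjusted p = 0.0638).

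**Figure D4:**
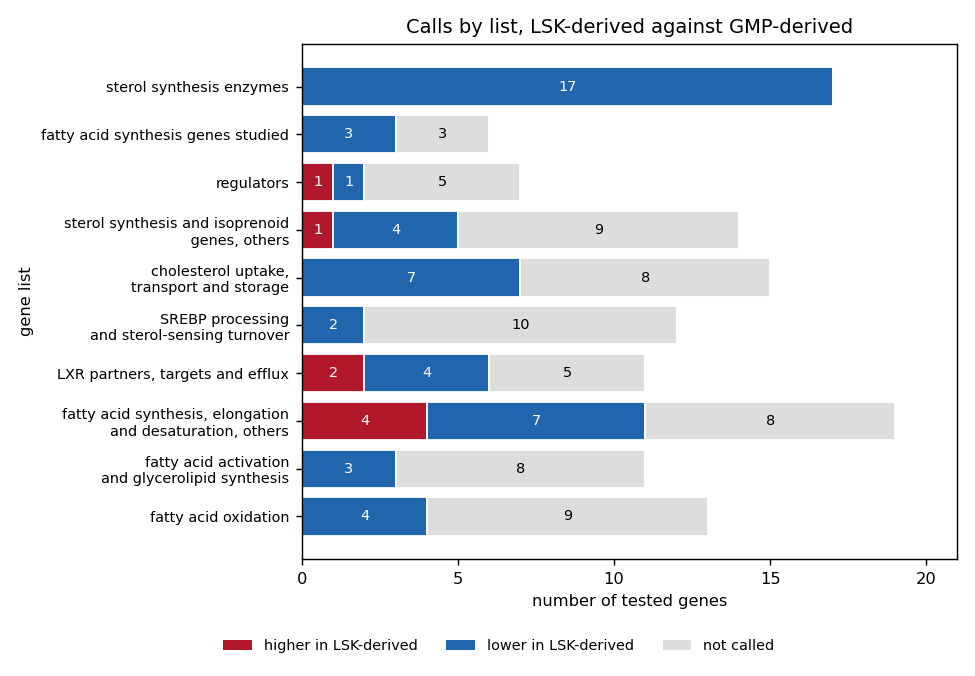
Number of tested genes that were higher in the LSK-derived libraries, lower, or not called, for the sterol enzymes, fatty acid genes and regulators of the set and for 7 lists of other pathway genes. All 17 sterol enzymes of the set were lower, and 4 of 13 oxidation genes were, against 13.9% of all tested genes.

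Markers of other cells that the cultures could hold were checked by list, with levels as CPM without the TMM factor. The 7 genes used to check the labelled myeloid leukaemia, among them Hoxa9 and Meis1, were all tested and present, and summed to between 2084 and 3004 CPM in LSK-derived libraries, and between 1318 and 3202 CPM in GMP-derived libraries. Single markers of that list separated the groups although the sums overlapped. Mpo was at 791 to 1406 CPM in LSK-derived libraries, against 13.8 to 504 CPM in GMP-derived ones. Kit was at 185 to 205 CPM, against 95.7 to 144 CPM. Hoxa9 was at 181 to 201 CPM, against 325 to 332 CPM. Ptprc was at 222 to 274 CPM, against 344 to 413 CPM. The groups overlapped in Meis1, Cd34 and Elane, the last at 330 to 728 CPM in LSK-derived libraries, against 65.4 to 1573 CPM in GMP-derived ones. GMP 5 was the lowest of the 6 libraries for Mpo and Elane and the highest for Cd34 and Hoxa9. Of 6 adipocyte markers, Adipoq, Plin1 and Cidec had 0 counts in every library, and the list summed to between 5.85 and 11.2 CPM in LSK-derived libraries, and between 0 and 5.79 CPM in GMP-derived libraries. The LSK-derived sum was mostly Fabp4, a fatty acid binding protein gene, at 10.1, 5.50 and 6.58 CPM in the LSK-derived libraries, against 0, 0.207 and 0.266 CPM in the GMP-derived ones. The highest GMP-derived sum was mostly Lpl in GMP 19, at 5.49 CPM. Of 8 macrophage markers, Siglec1, C1qa, C1qb and Cd5l were below 1 CPM in every library, and the list summed to between 83.9 and 131 CPM in LSK-derived libraries, and between 80.5 and 176 CPM in GMP-derived libraries. Among its 4 tested members, Cd68 and Mrc1 were higher in every LSK-derived library. Cd68 was at 57.5 to 70.0 CPM in LSK-derived libraries, against 13.8 to 50.03 CPM in GMP-derived ones, and Mrc1 at 1.32 to 2.85 CPM, against 0.369 to 0.916 CPM. The groups overlapped in Emr1, at 11.8 to 43.4 CPM, against 29.9 to 159 CPM, and in Csf1r, at 4.99 to 21.7 CPM, against 2.70 to 28.5 CPM. Of 6 erythroid markers, 4 were below 1 CPM in every library and the sums did not exceed 6.04 CPM. The stroma and endothelium list was carried by Pecam1, which leukocytes also express, and 5 of its 7 genes were below 1 CPM in every library. Its sums were 190 to 324 CPM in LSK-derived libraries, against 117 to 190 CPM in GMP-derived ones. The part of these markers in the differences was not tested.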

How the data were processed

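RNA was measured in 3 LSK-derived and 3 GMP-derived MLL-AF9 leukaemia libraries, prepared with a TruSeq kit from TRIzol-extracted RNA per the labels' protocols. The values are whole-number counts per gene, deposited by the authors without normalization. The submitters' processing notes list the build mm9 and the tools STAR 2.4, HTSeq 0.6.1 and DESeq2. No label states the gene annotation, the strand setting or filters, and reads that match more than 1 gene could have been lost or assigned to 1 of them.

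The table has 33924 rows, of which 12325 were at 0 in every library. No libraries of a group were copies of each other (chi-square per degree of freedom at least 9.70). The test was edgeR 4.0.16's quasi-likelihood fit (R 4.3.3) on the 13406 genes kept by filterByExpr, with TMM factors from 0.994 to 1.01, robust dispersions (common biological coefficient of variation 19.4%) and Benjamini-Hochberg adjustment over all tested genes. Calls needed an adjusted p below 0.05. Approximate SEs are the log2 fold change over the square root of F. With 3 against 3 libraries an exact permutation test could not go below 0.1 and none was used. The limit of 3 counts taken for a count of 0 covers counting error only. Alternatives were DESeq2 1.42.0 size factors and test, limma 3.58.1 voom, upper-quartile scaling, no filter, and leaving out each library.

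Members and lists were chosen with earlier results of these data known. From each list, up to 4 called genes with the smallest p were named, or the 2 most abundant where fewer were called, plus some fixed by name, among them Abca1, Abcg1, Me1 and Acss2. Some genes that the rule picks are not reported here. Transcript lengths came from GENCODE and promoters from RefSeq, both on GRCm38, matched by symbol. Protein sequences were not used here. No promoter of a member held the motif by which promoters were to be selected, so the 4 shown were chosen otherwise.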

Additional observations from a re-analysis of the deposited data

How the results depend on the processing

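Of the 23 called members, 19 were called under all 11 alternatives, and no direction changed. The exceptions were Scap, Ebp, Scd1 and Scd2. Of 26 other called pathway genes followed under the alternatives, 21 were called under all, and Ufd1l, Abcg4, Acadl and Me1 were among those that were not. Leaving out 1 library gave 16 to 17 lower sterol enzymes, 20 to 22 lower members, 0 higher members and a median from -1.25 to -1.08. No filter also gave 0 higher members, and 0 higher further sterol genes, as did each left-out library. Without 1 library, all called genes ran from 770 to 1523 higher and from 973 to 1944 lower, with the lowest counts without LSK 46 and LSK 44. SREBP processing had 1 lower gene with upper-quartile scaling or no filter, and 0 to 2 without 1 library (0 without LSK 44 or LSK 46, 1 without GMP 19). Liver X receptor genes had 1 to 3 higher (1 without LSK 45, LSK 46 or GMP 11) and 2 to 3 lower (2 without GMP 11). Other fatty acid genes had 2 to 3 higher (2 without LSK 44) and 3 to 5 lower (3 without LSK 44 or GMP 19, and 4 without LSK 45, LSK 46 or GMP 11). The cause was not tested. With the median transcript length the members' median level was 46.7 CPM per kb in LSK-derived and 86.3 CPM per kb in GMP-derived libraries, against 21.8 and 40.8, and Fasn took the place of Scd2 as the most abundant. With 1 mismatch the sterol element core was found in 11 members, against 0. No paired analysis was possible because the titles give the groups no shared numbers. Depth limits Nr1h3, Abca1 in the GMP-derived libraries and Abcg4 in the LSK-derived libraries, which were near the limit taken for a count of 0.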

Other observations

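GMP 5 stood apart from GMP 11 and GMP 19 in several genes of sterol handling, picked after their values were seen. Vldlr, a lipoprotein receptor gene, was at 7.38, 5.34 and 11.6 CPM in the LSK-derived libraries, against 75.7, 3.09 and 13.3 CPM in the GMP-derived ones. GMP 5 was thus far above every other library. Pgrmc1, which encodes a sterol-binding membrane protein, was at 84.0, 85.1 and 94.2 CPM in the LSK-derived libraries, against 273, 119.7 and 144 CPM in the GMP-derived ones, again with GMP 5 the highest. Lrp1, another lipoprotein receptor gene, was at 18.6, 27.4 and 11.9 CPM in the LSK-derived libraries, against 1.80, 24.0 and 23.9 CPM in the GMP-derived ones, with GMP 5 the lowest. None of the 3 genes was called between LSK-derived and GMP-derived libraries by edgeR (adjusted p = 0.246 for Vldlr, 0.0518 for Pgrmc1 and 0.875 for Lrp1). GMP 5 was also the lowest GMP-derived library in 16 of the 17 sterol synthesis enzymes.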
